A study of Mus musculus with 4 samples.

Results

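Hepatocyte metabolic enzymes and cytochromes are described here as a set of 33 genes, listed by name for their known roles in the urea cycle, gluconeogenesis and glycogen storage, amino acid breakdown, the methionine cycle, bile acid synthesis and cytochrome P450 oxidation. No measured value entered the rule, though the members were chosen with earlier results of these data known. The 33 genes were found among 41128 gene identifiers. All 33 also belonged to the 21640 genes compared, which had at least 10 counts in 1 or more of the 4 libraries. Every one of the 33 was well above that minimum in the presorted library, where the lowest had 945 counts.

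The libraries came from livers of C57BL/6 mice with experimental alcoholic hepatitis. All groups shared that treatment, in which 40% of calories came from freely eaten feed high in cholesterol and fat, 60% from liquid alcohol diet infused into the stomach, and alcohol binges were given weekly on top. Livers were digested with collagenase, hepatocytes were spun out at low speed and CD45+ cells were taken out on magnetic beads, which left the presorted CD45- library. Sorting of those cells gave Prom1+CD49f+CD45- cells (below, the Prom1+ library), Prom1-CD49f+CD45- cells (the Prom1- library) and a further population labelled Prom1+CD49f+CD45+ (the library labelled CD45+). Prom1 (prominin 1, CD133) is a surface glycoprotein of progenitor-like and bile duct cells, CD49f is integrin alpha 6, and CD45 is the leukocyte phosphatase encoded by Ptprc. Each library held pooled RNA of 2 mice, and each population had 1 library, so no difference has a replicate check and no test was made.

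Summed gene counts ran from 14670239 in the Prom1- library to 52293939 in the presorted library. Levels are CPM, a gene's counts relative to the depth of its library, which edgeR's TMM factors adjust. A ratio between 2 libraries carries a 95% interval for counting error alone, and the words called higher and called lower are kept for genes whose whole interval lies beyond 2-fold. The library labelled CD45+ went against its label in Prom1, at 11.4 CPM there against 67.1 CPM in the presorted library. Ptprc, at 14.5 CPM, was highest there of the sorted libraries (6.33 CPM in the Prom1+ and 3.602 in the Prom1- library) but 1.44-fold lower (1.28 to 1.63, without a call) than in the presorted library. Of 10 leukocyte markers, 2 were called higher there than in the presorted library and 3 lower, beside 23.8% and 12.1% of all genes compared. The 2 higher were the B cell gene Ms4a1, by 13.8-fold (10.1 to 19.3), and the dendritic cell gene Siglech, by 6.16-fold (3.91 to 10.04). In the library labelled CD45+ the 10 endothelial markers, among them Stab2 and Kdr, summed to 13363 CPM against 10215 CPM in the presorted library. None of the 10 was called in either direction. In the Prom1+ library, Prom1 was 5.29-fold higher (5.08 to 5.51) than in the presorted library. All 12 cholangiocyte markers, Prom1 among them, were called higher there, beside 27.6% of all genes compared. All 10 endothelial markers were called lower, beside 15.6%.

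Hepatocytes convert the nitrogen of amino acids into urea through a mitochondrial and cytosolic cycle, release glucose between meals, turn cholesterol into conjugated bile acids and oxidise drugs with microsomal cytochromes. The enzymes are divided along the liver lobule. Urea cycle, gluconeogenic and several amino acid enzymes are strongest around the portal vein, while glutamine synthetase and most drug-oxidising cytochromes are strongest around the central vein. The genes are known to depend on liver-enriched factors such as HNF4, HNF1 and C/EBP and, for gluconeogenesis, on cyclic AMP response elements.

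Sequence immediately upstream of the transcript start was available in the RefSeq promoter table (GRCm38.p6) for 23 of the 33 genes. A few of these windows (250 bases each, 5′ to 3′ in the direction of the gene) are shown because their genes mark the range of the results. Cyp8b1 had the lowest ratio to the presorted library in the Prom1+ library, on 7 counts. Nags and Pygl were the only members called higher there than in the Prom1- library, and G6pc and Pck1 are the textbook gluconeogenic pair. The windows lie at chr9:121916306-121916555 (- strand), chr11:102145263-102145512 (+ strand), chr12:70227684-70227933 (- strand), chr11:101367466-101367715 (+ strand) and chr2:173152823-173153072 (+ strand). Capitals mark matches to the motifs named after the sequences.

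Cyp8b1: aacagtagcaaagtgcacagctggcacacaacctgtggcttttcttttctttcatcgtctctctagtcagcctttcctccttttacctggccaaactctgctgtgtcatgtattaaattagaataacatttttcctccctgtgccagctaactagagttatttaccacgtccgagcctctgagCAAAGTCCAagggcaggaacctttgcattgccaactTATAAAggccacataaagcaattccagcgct
Nags: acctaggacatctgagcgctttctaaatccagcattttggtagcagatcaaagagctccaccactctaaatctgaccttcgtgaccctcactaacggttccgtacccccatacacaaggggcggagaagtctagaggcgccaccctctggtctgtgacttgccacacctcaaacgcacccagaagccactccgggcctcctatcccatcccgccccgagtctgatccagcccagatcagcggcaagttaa
Pygl: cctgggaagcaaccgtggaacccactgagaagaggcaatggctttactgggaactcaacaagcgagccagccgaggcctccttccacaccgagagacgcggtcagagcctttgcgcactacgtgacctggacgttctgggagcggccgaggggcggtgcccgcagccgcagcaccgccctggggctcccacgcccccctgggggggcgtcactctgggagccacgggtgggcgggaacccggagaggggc
G6pc: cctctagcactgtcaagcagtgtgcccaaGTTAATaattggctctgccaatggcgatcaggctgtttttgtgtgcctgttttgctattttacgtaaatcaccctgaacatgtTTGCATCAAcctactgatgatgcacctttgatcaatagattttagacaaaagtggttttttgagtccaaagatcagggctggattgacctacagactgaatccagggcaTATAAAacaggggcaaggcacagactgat
Pck1: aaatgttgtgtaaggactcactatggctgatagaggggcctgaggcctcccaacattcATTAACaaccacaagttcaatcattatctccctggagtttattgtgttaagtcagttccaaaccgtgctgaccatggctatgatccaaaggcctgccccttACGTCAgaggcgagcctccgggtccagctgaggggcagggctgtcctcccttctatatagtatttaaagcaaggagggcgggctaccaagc

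Positions are counted back from the transcript start, whose first upstream base is -1, and both strands were searched. The Cyp8b1 window held the HNF4 half-element CAAAGTCCA from -67 to -59 and the TATA box TATAAA from -31 to -26. The G6pc window held the HNF1 half-site GTTAAT from -221 to -216 and TATAAA from -29 to -24. It also held TTGCNNCAA, searched as a C/EBP half-palindrome, from -138 to -130. No full C/EBP palindrome was searched. The Pck1 window held GTTAAT on the opposite strand from -192 to -187 and the cyclic AMP half-element TGACGT, also on the opposite strand, from -91 to -86. None of the searched letters was found in the Nags and Pygl windows. These 2 windows held 55.6% and 69.2% G and C, against 44.8% for Cyp8b1, 43.2% for G6pc and 50.8% for Pck1. Windows without a match were not particular to Nags and Pygl. The others were those of Ass1, Bhmt, Cyp27a1, Cyp2f2, Fbp1, Glul, Gnmt, Hpd, Otc and Tat. They held from 43.6% (Otc) to 75.6% (Ass1) G and C. These genes were from 5.44-fold (Glul) to 49.7-fold (Cyp2f2) lower in the Prom1+ than in the presorted library. A link between the windows and the ratios was not tested.

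Over the 23 windows, TATAAA was found in 10 (Cyp1a2, Cyp2a5, Cyp2c29, Cyp2d9, Cyp3a11, Cyp8b1, G6pc, Hal, Hgd and Tdo2), against 12.4% of all 32851 promoters of the table. A match was counted anywhere in the window. Those of Cyp3a11, Tdo2 and Hgd began at -234, -229 and -139, and the rest between -31 and -19. In Cyp2d9, Hal and Hgd the letters lay on the opposite strand. GTTAAT was found in 3 (Cyp2a5, G6pc and Pck1), against 6.43% of promoters. CAAAGTCCA was found in Cyp3a11 and Cyp8b1, against 0.384%, and TTGCNNCAA in G6pc alone, against 1.74%. The full palindrome TGACGTCA, which contains TGACGT, was in no member window and in 1.55% of promoters, while TGACGT was in 1 member and in 6.47%. A match describes letters in the window and does not show binding.

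Hepatocyte enzyme RNA was low in each sorted library against the presorted library. The 33 genes summed to 11642 CPM in the presorted library, 1789 in the Prom1- library, 607 in the Prom1+ library and 477 in the library labelled CD45+. They made up 0.989%, 0.173%, 0.0688% and 0.0513% of all counts, in that order. The presorted library had the highest level of 32 genes, the exception being Glul, and the lowest level was in the library labelled CD45+ for 22 genes, in the Prom1+ library for 10 and in the Prom1- library for Cyp7a1 alone. In bulk RNA, fewer hepatocytes and less RNA of these genes per cell cannot be told apart.

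**Figure D1:**
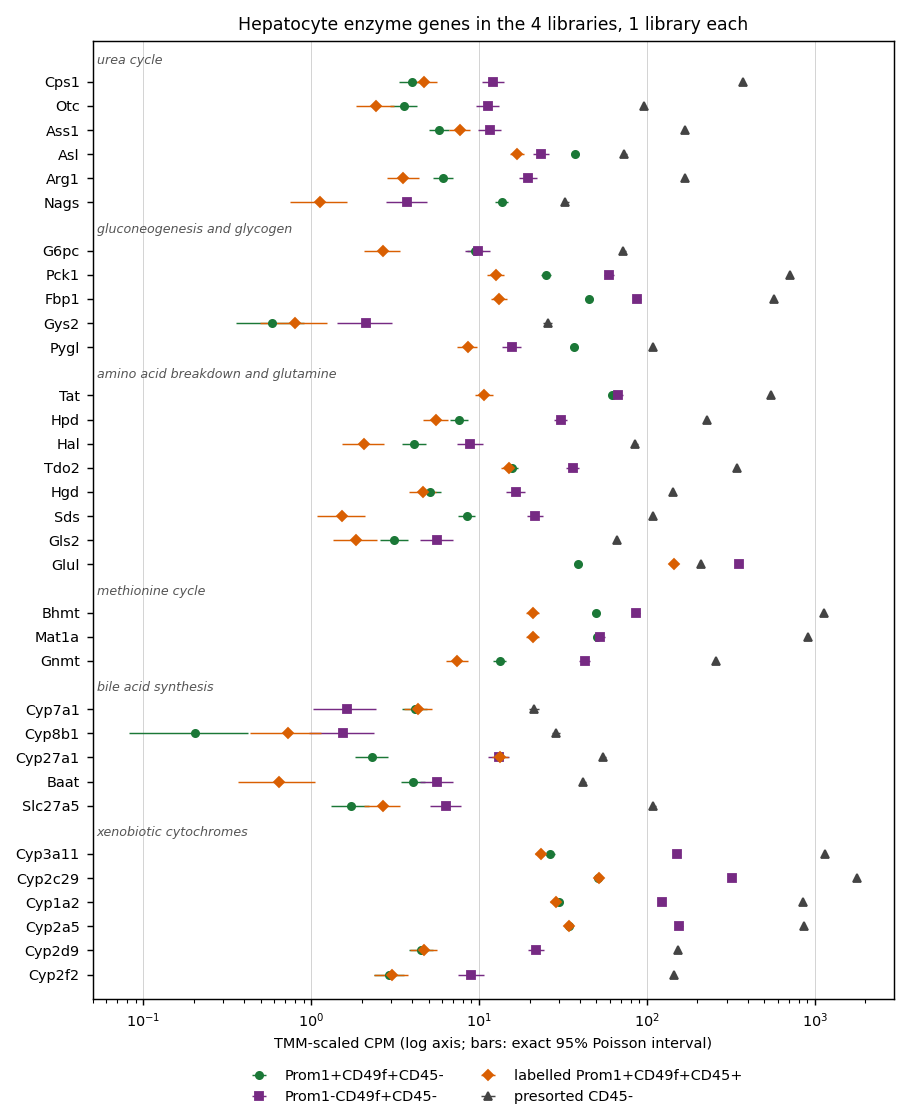
Level of each of the 33 genes in the 4 libraries, as TMM-scaled CPM on a log axis, grouped by role; 1 point is 1 library and bars are exact 95% Poisson intervals for counting error. The presorted points lie to the right of all others in 32 of 33 genes, and the points of the Prom1+ library and the library labelled CD45+ lie on each other in the 6 xenobiotic cytochromes.

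Against the presorted library, 32 of 33 members were called lower in the Prom1+ library and 0 higher, where 15.6% of all genes compared were called lower and 27.6% higher. The median member was 23.8-fold lower (log2 -4.57), with quartiles at 12.6-fold and 30.0-fold lower, while the median over all genes compared was 0.02 on the log2 scale. In the Prom1- library 32 were also called lower and 0 higher, against 14.1% and 9.77% of all genes, with a median 8.53-fold lower (log2 -3.09, all genes -0.01). The library labelled CD45+ had 32 called lower and 0 higher, against 12.1% and 23.8%, with a median 35.6-fold lower (log2 -5.15, all genes -0.01). The 3 comparisons share the presorted library, so they are given side by side and not as independent counts. The member that escaped the call was Asl in the Prom1+ library and Glul in both other libraries.

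The fall was not even across genes. Members whose whole interval was more than 10-fold lower numbered 25 in the Prom1+ library, 8 in the Prom1- library and 29 in the library labelled CD45+. The share of all genes compared beyond 10-fold was not counted, so these numbers have no background beside them. Within 2-fold of the set's own median lay 21, 26 and 27 of the 33, in the same order. The lowest ratios were Cyp8b1 at log2 -7.14 in the Prom1+ library and Cps1 at -4.94 in the Prom1- library and -6.31 in the library labelled CD45+.

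**Figure D2:**
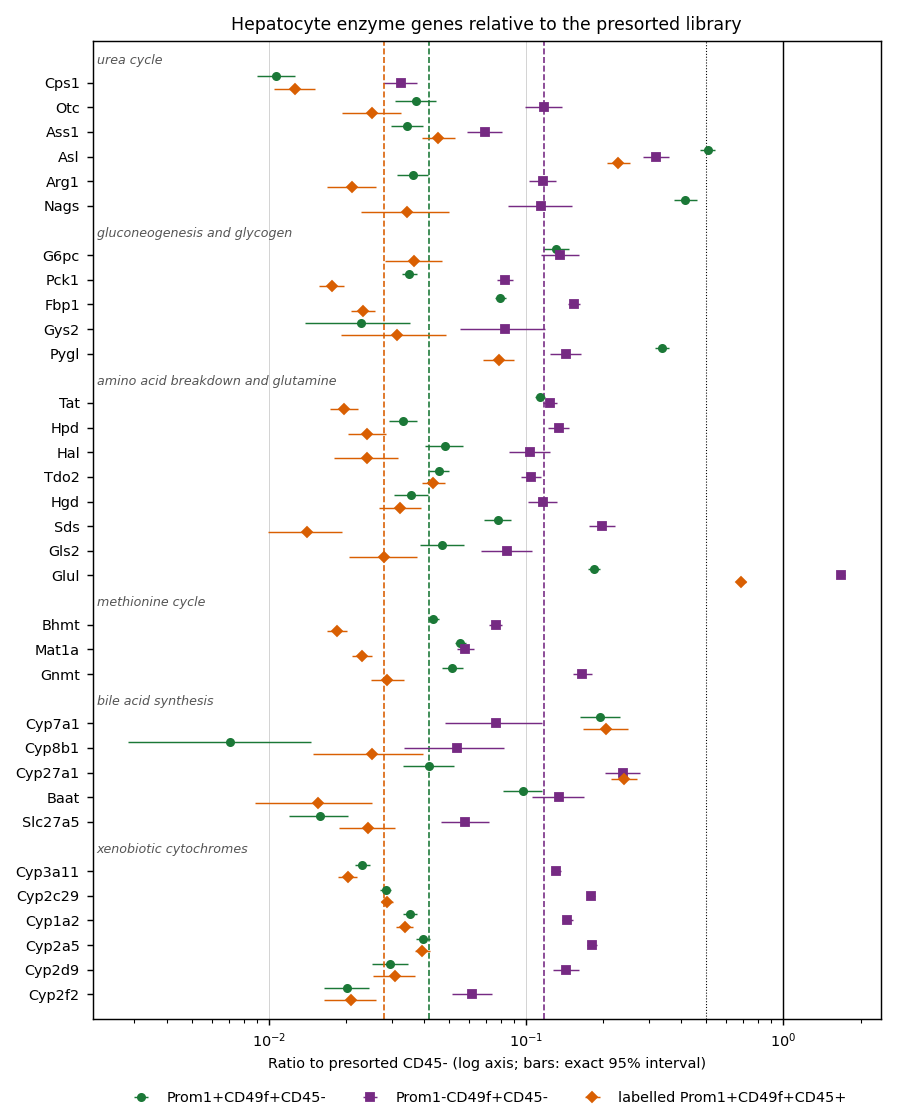
Ratio of each gene in the 3 sorted libraries to the presorted library, on a log axis with exact 95% intervals; dashed lines are the medians of the 33 genes in each sorted library, the solid line is a ratio of 1 and the dotted line marks 2-fold lower. Most points sit near their library's median, while Asl, Nags and Pygl of the Prom1+ library, Glul of the Prom1- library, and Glul, Cyp27a1, Asl and Cyp7a1 of the library labelled CD45+ sit far to the right.

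Levels of single genes follow in a fixed order of libraries, Prom1+, Prom1-, labelled CD45+ and presorted. In the urea cycle, Cps1, the mitochondrial carbamoyl phosphate synthetase that commits ammonia to the cycle, stood at 3.997, 12.2, 4.71 and 374 CPM. It was 93.5-fold lower (79.1 to 112) in the Prom1+ library and 30.8-fold lower (26.5 to 36.0) in the Prom1- library than in the presorted library. Otc, which joins carbamoyl phosphate to ornithine, stood at 3.56, 11.2, 2.42 and 95.8 CPM. The cytosolic enzymes Ass1 (5.78, 11.6, 7.65 and 168 CPM) and Arg1 (6.10, 19.6, 3.55 and 168 CPM), which make argininosuccinate and split arginine into urea and ornithine, were 29.0-fold (25.2 to 33.6) and 27.6-fold lower (24.0 to 31.8) in the Prom1+ library. These 4 enzymes of the cycle were thus low in every sorted library and least so in the Prom1- library.

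Asl and Nags departed from that order. Asl, which splits argininosuccinate and is also active in tissues without a complete urea cycle, stood at 37.4, 23.5, 16.8 and 73.4 CPM. The Prom1+ library was 1.97-fold lower than the presorted library, with an interval of 1.84 to 2.10 that reaches across the 2-fold line. Nags, which makes the N-acetylglutamate that activates Cps1, stood at 13.6, 3.74, 1.13 and 32.7 CPM. Its 2.40-fold lower level (2.16 to 2.67) in the Prom1+ library was called with TMM but not with library totals, where the log2 ratio was -0.85 against -1.26. It was 8.73-fold lower (6.64 to 11.7) in the Prom1- library and 29.0-fold lower (19.96 to 43.8) in the library labelled CD45+. Nags was 3.64-fold higher (2.74 to 4.93) in the Prom1+ than in the Prom1- library and 12.1-fold higher (8.25 to 18.4) than in the library labelled CD45+, the widest excess of any member in both comparisons.

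Among glucose and glycogen enzymes, Pck1, whose enzyme makes phosphoenolpyruvate from oxaloacetate, stood at 25.2, 59.3, 12.6 and 716 CPM and was 28.4-fold lower (26.6 to 30.5) in the Prom1+ library than in the presorted library. G6pc, the phosphatase that frees glucose, stood at 9.48, 9.82, 2.66 and 72.2 CPM, and was 1.04-fold lower in the Prom1+ than in the Prom1- library, with an interval of 0.843 to 1.27 that spans 1. Fbp1, fructose bisphosphatase, stood at 45.1, 87.2, 13.2 and 568 CPM. Set against the library labelled CD45+, the Prom1+ library was 3.57-fold higher (2.73 to 4.72) for G6pc and 3.41-fold higher (3.03 to 3.86) for Fbp1, both called, and 2.003-fold higher (1.76 to 2.29) for Pck1, without a call.

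The glycogen enzymes were both lower in the Prom1+ than in the presorted library, by unlike amounts. Gys2, liver glycogen synthase, stood at 0.584, 2.12, 0.806 and 25.6 CPM and was 43.9-fold lower (28.3 to 72.1) in the Prom1+ library. Pygl, the liver phosphorylase that releases glucose units from glycogen, stood at 37.0, 15.6, 8.54 and 109 CPM and was 2.96-fold lower (2.78 to 3.15). Pygl was 2.37-fold higher (2.05 to 2.74) in the Prom1+ than in the Prom1- library. That call ended with DESeq2 size factors, at log2 1.10, and with the length trend removed, at 1.14, against 1.24.

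Of the enzymes of amino acid breakdown, Tat, which starts tyrosine breakdown, stood at 61.9, 67.6, 10.7 and 546 CPM and was 8.82-fold lower (8.44 to 9.22) in the Prom1+ library than in the presorted library. The next enzymes of the same pathway fell farther there. Hpd (7.62, 30.6, 5.52 and 229 CPM), which makes homogentisate, was 30.0-fold lower (26.5 to 34.1), and Hgd (5.11, 16.6, 4.63 and 143 CPM), which opens its ring, was 28.01-fold lower (24.1 to 32.7). Tdo2, the liver enzyme of tryptophan breakdown, stood at 15.8, 36.0, 14.99 and 343 CPM, and Hal, which removes ammonia from histidine, at 4.11, 8.83, 2.06 and 85.4 CPM. They were 21.8-fold and 20.8-fold lower in the Prom1+ library, with upper bounds of 23.8 and 24.7. Sds, serine dehydratase, stood at 8.46, 21.6, 1.53 and 109 CPM, and Gls2, the liver glutaminase, at 3.12, 5.58, 1.85 and 66.0 CPM. Sds was 71.2-fold lower (51.8 to 101) in the library labelled CD45+ than in the presorted library, by point value the second farthest fall there after Cps1.

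Glul, glutamine synthetase, which takes up the ammonia left by the urea cycle in the hepatocytes around the central vein and is also made in other cell types, did not share the pattern. It stood at 38.8 CPM in the Prom1+ library, 354 in the Prom1- library, 145 in the library labelled CD45+ and 211 in the presorted library. It was 5.44-fold lower (5.13 to 5.76) in the Prom1+ library, 1.68-fold higher (1.62 to 1.74) in the Prom1- library and 1.46-fold lower (1.40 to 1.51) in the library labelled CD45+, the last 2 without a call. On the authors' deposited normalized values its log2 ratio in the Prom1- library was 1.12 against 0.75, past 2-fold. The endothelial markers summed to 112, 6280, 13363 and 10215 CPM in the same order, and the fibroblast, stellate and mesothelial markers to 41.2, 803, 66.8 and 786 CPM. The part of those cells in the Glul levels was not tested.

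In the methionine cycle, Mat1a, which makes S-adenosylmethionine in mature liver, stood at 50.2, 52.6, 20.9 and 905 CPM. Bhmt, which remethylates homocysteine with betaine, stood at 49.5, 86.4, 20.9 and 1134 CPM, and Gnmt, which disposes of excess methyl groups on glycine, at 13.3, 42.5, 7.41 and 257 CPM. They were 18.04-fold (17.2 to 18.9), 22.9-fold (21.8 to 24.1) and 19.3-fold lower (17.6 to 21.3) in the Prom1+ library than in the presorted library. Between the Prom1+ and Prom1- libraries Mat1a was 1.05-fold lower with an interval of 0.961 to 1.14, while Gnmt was 3.20-fold lower (2.83 to 3.63) in the Prom1+ library.

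The bile acid enzymes also differed among themselves. Cyp7a1, the rate-limiting enzyme of the classical pathway, stood at 4.14, 1.63, 4.35 and 21.3 CPM and was 5.13-fold lower (4.30 to 6.17) in the Prom1+ library. Cyp8b1, the 12-alpha-hydroxylase needed for cholic acid, stood at 0.204, 1.55, 0.725 and 28.9 CPM. Its 7 counts in the Prom1+ library made it 141-fold lower (68.4 to 352) than in the presorted library. By point value this was the farthest fall of any member in any library, but the interval holds that of Cps1 there (79.1 to 112). The level of 0.204 CPM also lies below the 0.817 CPM taken below as a measure of stray counts in that library. Cyp27a1, the mitochondrial sterol 27-hydroxylase that is also found outside hepatocytes, stood at 2.31, 13.1, 13.3 and 54.9 CPM. It was 5.67-fold lower (4.33 to 7.48) in the Prom1+ than in the Prom1- library and 5.75-fold lower (4.49 to 7.45) than in the library labelled CD45+. The conjugating enzymes Slc27a5 (1.72, 6.36, 2.66 and 109 CPM) and Baat (4.06, 5.58, 0.645 and 41.7 CPM), which activate bile acids and join them to taurine or glycine, were 63.6-fold (49.2 to 83.6) and 10.3-fold lower (8.65 to 12.3) in the Prom1+ library. These enzymes act one after the other, and their intervals in the Prom1+ library did not overlap. Baat fell farther in the library labelled CD45+, by 64.7-fold (39.7 to 113).

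The 6 cytochromes of drug and xenobiotic oxidation had similar ratios. Cyp2c29, of the arachidonate and drug oxidising Cyp2c family, stood at 51.1, 322, 51.7 and 1796 CPM. Cyp3a11, the main mouse Cyp3a of the liver, stood at 26.6, 151, 23.3 and 1150 CPM, and Cyp1a2, which oxidises caffeine and aromatic amines, at 29.9, 123, 28.6 and 847 CPM. Cyp2a5, the mouse coumarin hydroxylase, stood at 34.3, 156, 34.1 and 864 CPM. In each of these 4 the Prom1- library had the highest level of the sorted libraries, and the other sorted libraries lay close together. Cyp2d9, a steroid hydroxylase, stood at 4.52, 21.8, 4.71 and 153 CPM, and Cyp2f2, a cytochrome of periportal hepatocytes and airway cells, at 2.92, 8.97, 3.02 and 145 CPM. Against the presorted library the 6 were 25.2-fold to 49.7-fold lower in the Prom1+ library, 25.3-fold to 49.4-fold lower in the library labelled CD45+, and 5.53-fold to 16.2-fold lower in the Prom1- library. Cyp2c29, Cyp2d9, Cyp2a5 and Cyp3a11 have near-identical relatives, so their counts are uncertain where reads could be split between copies.

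Per kilobase of exon, the highest members of the presorted library were Cyp2c29 at 888 CPM per kb, Cyp3a11 at 491 and Bhmt at 456. In the Prom1- library they were Cyp2c29 at 159, Glul at 127 and Cyp2a5 at 77.6, and in the library labelled CD45+ Glul at 51.97, Cyp2c29 at 25.6 and Cyp2a5 at 17.0. The order differed in the Prom1+ library, where Fbp1 at 30.5 and Tat at 26.1 stood beside Cyp2c29 at 25.3. At the low end, 1471 odorant, trace amine and vomeronasal receptor genes, which liver is not known to use, gave a measure of stray counts. Their 95th percentile was 0.817 CPM in the Prom1+ library, 0.353 in the Prom1- library, 1.09 in the library labelled CD45+ and 0.0450 in the presorted library. Gys2 and Cyp8b1 lay below it in the Prom1+ library, Gys2, Cyp8b1 and Baat in the library labelled CD45+, and no member elsewhere.

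Between the Prom1+ and Prom1- libraries, 19 members were called lower in the Prom1+ library and 2, Nags and Pygl, higher, where 12.7% and 15.5% of all genes compared were called. The median member was 3.04-fold lower (log2 -1.60), against 0.31 over all genes. All 6 xenobiotic cytochromes were called lower, from 3.07-fold (2.35 to 4.04) for Cyp2f2 to 6.30-fold (5.96 to 6.66) for Cyp2c29, with a median of 4.69-fold. Glul was 9.12-fold lower (8.59 to 9.70), the farthest of the set. Of the other roles, 3 of 5 bile acid enzymes were called lower, with a median 3.69-fold lower. In the same comparison 1 of 5 glucose and glycogen enzymes (Pck1), 1 of 3 methionine enzymes (Gnmt), 3 of 6 urea cycle enzymes and 5 of 8 enzymes of amino acid breakdown and glutamine were called lower, with medians from 1.75-fold to 2.47-fold lower in these 4 roles. Differences between roles were not tested. Ratios in this comparison varied with transcript length over all genes (Spearman rho 0.200 over 18352 genes, a description with no test). With the length trend removed the member median was log2 -1.07, and 13 members were called lower. The trend was stronger in the Prom1- against the presorted library, with rho -0.305 over 16572 genes. Removing it there moved the member median from log2 -3.09 to -3.36, and 32 members were still called lower.

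Against the library labelled CD45+, the Prom1+ library had 9 members called higher and 2 lower, where 12.5% and 13.1% of all genes were called. The 9 were Nags, G6pc, Fbp1, Pygl, Tat, Sds, Bhmt, Mat1a and Baat, from 2.37-fold (2.14 to 2.62) for Bhmt to 12.1-fold for Nags, and the 2 lower were Glul at 3.74-fold (3.51 to 3.98) and Cyp27a1. None of the 6 xenobiotic cytochromes was called, and their ratios ran from 1.14-fold higher (1.03 to 1.27) for Cyp3a11 to 1.04-fold lower (0.813 to 1.33) for Cyp2d9. The median over the 33 was log2 0.46, against -0.17 over all genes. This comparison and the preceding one share the Prom1+ library.

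**Figure D3:**
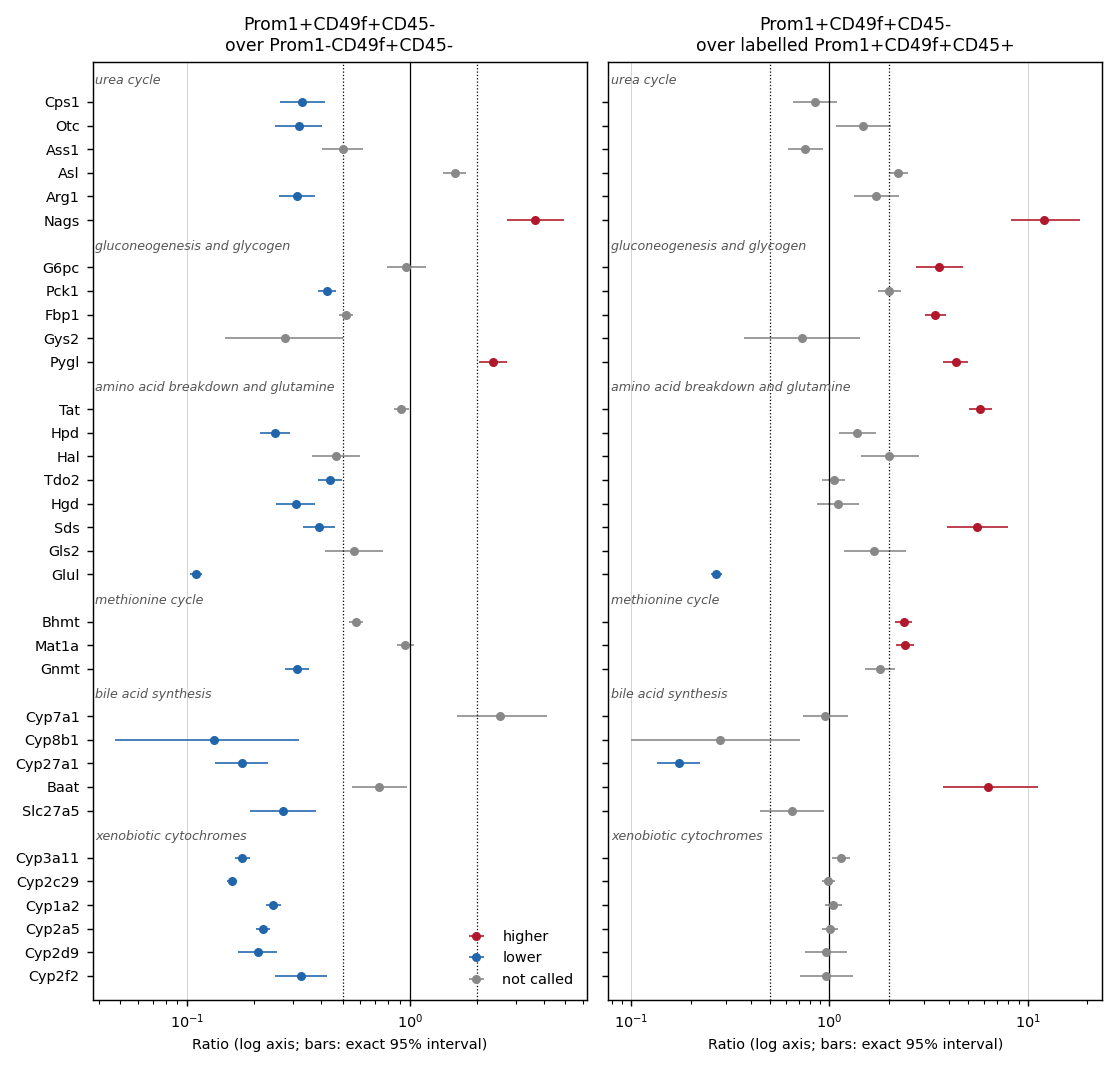
Ratio of each gene in the Prom1+ library to the Prom1- library (left) and to the library labelled CD45+ (right), on log axes with exact 95% intervals; dotted lines mark 2-fold, red points are called higher, blue points lower and grey points not called. The 6 xenobiotic cytochromes are all blue on the left, with a median of 4.69-fold lower, and all lie close to a ratio of 1 on the right.

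The members were also grouped by their known place in the lobule. Of those known as periportal (12 genes: Cps1, Otc, Ass1, Asl, Arg1, G6pc, Pck1, Fbp1, Hal, Sds, Gls2 and Cyp2f2), the median was 9.12-fold lower in the Prom1- library than in the presorted library. Of those known as pericentral (6 genes, Glul, Cyp1a2, Cyp2a5, Cyp3a11, Cyp2c29 and Cyp7a1), it was 6.21-fold lower. The summed level of the pericentral genes was 1.85 times that of the periportal genes (1.84 to 1.87) in the presorted library, 3.96 times (3.83 to 4.10) in the Prom1- library, 3.99 times (3.79 to 4.20) in the library labelled CD45+ and 1.19 times (1.15 to 1.24) in the Prom1+ library. Without Glul the ratios were 1.77, 2.70, 1.97 and 0.941, in the same order. By these sums, the Prom1+ library had the lowest and the Prom1- library, without Glul, the highest pericentral level relative to periportal. Without Glul the pericentral genes are all cytochromes, while Cyp2f2 is the only periportal cytochrome. Zone and enzyme class can therefore not be told apart here. The medians in the Prom1+ library lay closer, at 23.85-fold lower than presorted for the periportal and 26.7-fold lower for the pericentral genes. Fbp1 at 45.1 CPM and Asl at 37.4 CPM were the largest parts of its periportal sum of 155 CPM, and no periportal gene was left out as a check. The zone sums are not per length, so only their differences between libraries can be read.

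Set against plasma protein genes in the same library, which no scaling between libraries can change, the enzymes differed again. The 18 plasma protein genes, such as Alb and Trf, summed to 15067 CPM in the Prom1+ library, 11454 in the Prom1- library, 1208 in the library labelled CD45+ and 56649 in the presorted library. The 33 enzymes were equal to 4.03% (3.98 to 4.09) of that sum in the Prom1+ library, 15.6% (15.4 to 15.8) in the Prom1- library, 39.5% (38.6 to 40.3) in the library labelled CD45+ and 20.6% (20.5 to 20.6) in the presorted library. Of the plasma protein genes in the Prom1+ library, 15 of 18 were called lower than in the presorted library and 0 higher, beside 15.6% and 27.6% of all genes compared. Their median was 8.83-fold lower. They ran from genes near the presorted level to genes far below it, and none lay between Fgb at log2 -3.78 and Apoa2 at -5.12. Near one end, Alb, albumin, was 1.63-fold lower (1.61 to 1.64) than in the presorted library, Ahsg, fetuin A, 1.93-fold lower (1.91 to 1.94) and Ambp, the precursor of alpha-1-microglobulin and bikunin, 1.09-fold higher (1.08 to 1.11), all without a call. Between the ends lay, among others, Ttr, the thyroxine carrier transthyretin, at 2.10-fold (2.06 to 2.15), Fgg, a fibrinogen chain, at 6.29-fold (6.18 to 6.39) and Fgb, another, at 13.7-fold lower (13.5 to 14.02). At the far end Hpx, the heme carrier hemopexin, was 123-fold lower (117 to 130), Serpinc1, antithrombin, 59.3-fold lower (53.8 to 65.5), Hp, haptoglobin, 58.8-fold lower (56.6 to 61.2) and Apoa1 57.8-fold lower (55.0 to 60.7).

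**Figure D4:**
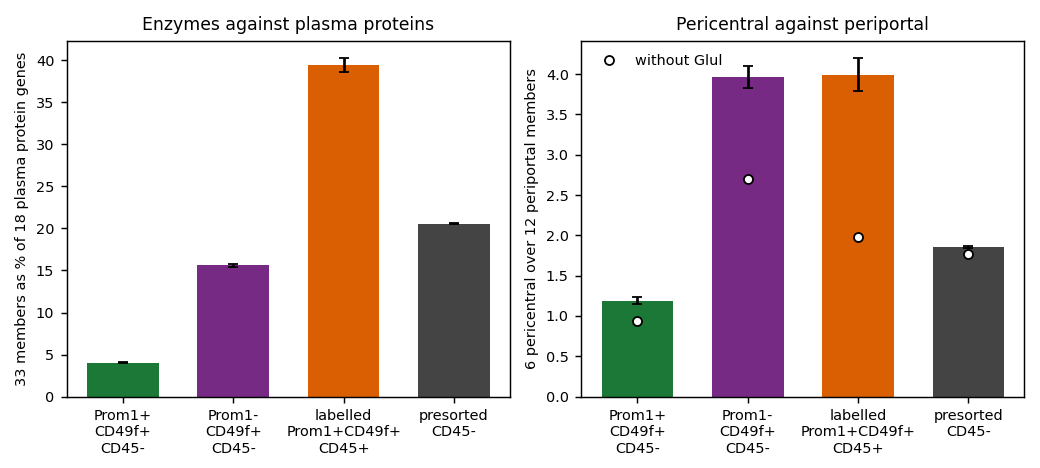
Left, summed level of the 33 enzymes as a percentage of the summed level of 18 plasma protein genes in each library; right, summed level of 6 pericentral over 12 periportal members. Bars are 1 library each with exact 95% counting intervals, and open points leave out Glul. The Prom1+ library has the lowest bar in both panels, at 4.03% and 1.19.

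Other genes of the same pathways were counted in the same way. In the Prom1+ library against the presorted library, 4 of 8 other urea cycle and ammonia genes with at least 10 counts, 8 of 18 other glucose and glycogen genes, 21 of 35 other amino acid genes, 12 of 19 other methionine and one-carbon genes, 11 of 13 other bile acid genes and 22 of 32 other cytochromes and partners were called lower, beside 15.6% of all genes compared. Their medians ran from 2.38-fold lower for glucose and glycogen to 11.3-fold lower for cytochromes, against 23.8-fold for the 33. Called higher were 1, 1, 0, 0, 2 and 1 of them, in the same order, beside 27.6% of all genes. In the Prom1- library 6, 13, 27, 14, 8 and 18 were called lower, beside 14.1%, and in the library labelled CD45+ 8, 12, 30, 14, 11 and 26, beside 12.1%. The difference between the 33 and the other genes was not tested.

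**Figure D5:**
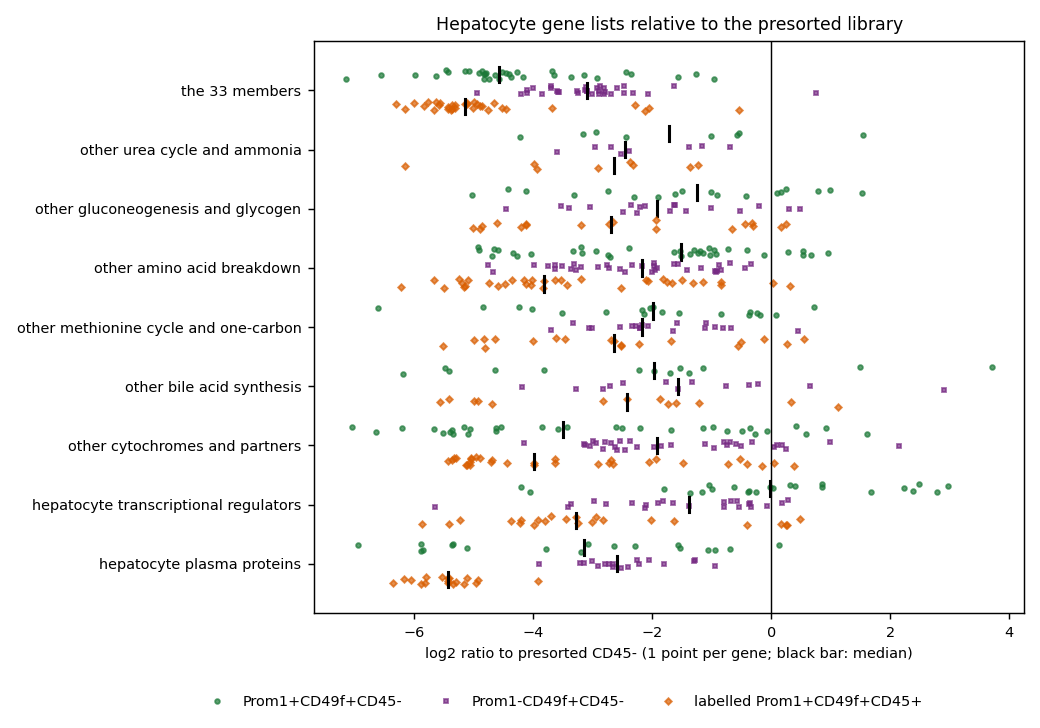
Log2 ratio of each gene to the presorted library for the 33 members, 6 lists of other genes of the same pathways, hepatocyte transcriptional regulators and plasma proteins; 1 point is 1 gene with at least 10 counts, colours are the 3 sorted libraries and black bars are medians. The members' medians, at -4.57, -3.09 and -5.15, lie to the left of the medians of the other pathway lists.

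Several genes of these lists are given by name. The rule took, among others, the highest and the lowest ratio of each list in the Prom1+ library. Contrasts between such genes are therefore set by that choice. Arg2, the extrahepatic arginase, stood at 8.23, 1.27, 0.564 and 2.84 CPM and was 2.90-fold higher (2.34 to 3.61) in the Prom1+ library than in the presorted library, opposite to Arg1. Slc2a2, the GLUT2 glucose carrier, stood at 362, 62.7, 7.17 and 126 CPM and was 2.87-fold higher (2.78 to 2.97). The alanine aminotransferase Gpt2 stood at 488, 64.4, 17.8 and 253 CPM, its 1.93-fold excess in the Prom1+ library (1.89 to 1.98) being without a call, and Agxt, the peroxisomal glyoxylate aminotransferase, at 2.07, 9.25, 0.846 and 62.9 CPM, 30.4-fold lower (24.0 to 39.0). Glud1, glutamate dehydrogenase, stood at 399, 222, 248 and 580 CPM, and Oat, ornithine aminotransferase, at 11.4, 130, 82.5 and 212 CPM, 18.6-fold lower (16.8 to 20.6) in the Prom1+ library. Slc27a2, an acyl-CoA synthetase for fatty and bile acids, was 44.5-fold lower (39.8 to 50.03) in the Prom1+ library, against 3.24-fold (3.18 to 3.31) for the sterol carrier Scp2.

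Exons of 8 members overlap another annotated gene, and the strand setting of the counting was not given in the sources used here. Among these pairs the overlap with the most counts was that of Sds with Plbd2 on the opposite strand, which had 3446, 1145, 2596 and 7787 counts in the 4 libraries, and next that of Gls2 with Spryd4, with 431, 284, 278 and 1001 counts. Levels of Sds and Gls2 are therefore uncertain. The Nags neighbour Gm11586 had at most 3 counts in any library. Other markers moved with the sorted libraries too. Those of Kupffer cells and macrophages summed to 90.2, 147, 199 and 937 CPM, those of other leukocytes to 16.1, 19.2, 96.9 and 190 CPM (3 of 10 at 0 counts in the Prom1+ library and 2 of 10 in the Prom1- library), and those of red cells to 2.28, 8.41, 6.20 and 269 CPM. The part of these cells in the enzyme levels was not tested.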

How the data were processed

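Gene expression was measured by RNA sequencing in 4 mouse liver cell libraries. The authors deposited estimated counts per gene and normalized values, which were CPM with 1 added. TopHat2, Partek 3 and the mm10 build are named, per the submitters' processing notes. The annotation release and the use of strand were not given in the sources used here. Quant-seq, which reads 3' ends, stands in the title, but a stranded polyA kit in the labels' protocols, and levels per kilobase depend on which was used. The table column named only CD45 was taken as the presorted cells, the only population left in the design text.

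Identifiers were matched to symbols in GENCODE vM21 (40254 of 41128). Estimated counts were rounded and scaled by TMM (edgeR 4.0.16 in R 4.3.3) on genes with at least 10 counts in 1 library. Ratios carry exact 95% conditional binomial (Clopper-Pearson) intervals, and levels exact 95% Poisson intervals. They cover counting error only and treat amplified reads as independent molecules. Calls need the whole interval beyond 2-fold. Simulated counts with known changes tested the script, and for the Prom1+ against the presorted library it called 100 of 100 genes made 8-fold higher and 100 of 100 made 8-fold lower. All members are named. From each other pathway list the text names genes by a rule, the 2 with the highest mean level and the highest and lowest ratio in the Prom1+ library among genes with at least 100 counts, though not every gene it takes is reported here. The members and lists were chosen with earlier results of these data known. Alternatives were library totals, DESeq2 1.42.0 size factors, the deposited values, minimums of 50 counts or none, calls without interval or beyond 4-fold, and removal of the length trend.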

Additional observations from a re-analysis of the deposited data

How the results depend on the processing

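No ratio of a member changed sign with library totals, DESeq2 size factors, the deposited values or the length trend removed. Of 165 ratios, 143 stayed inside their main 95% interval with DESeq2, 109 with the length trend removed, 79 with library totals and 65 with the deposited values. The counts called lower against the presorted library ranged from 30 to 32 under every alternative. One member, Glul, was called higher in the Prom1- library with the deposited values, against 0. Between the Prom1+ and Prom1- libraries, 2 members called higher became 1 with DESeq2 and 1 with the length trend removed. Beyond 4-fold, 0 were higher and 5 lower there, and against the library labelled CD45+ 2 were higher and 1 lower. Scaling without the library labelled CD45+, chosen after seeing the data, changed no count. With library totals the median of all genes against the presorted library moved from 0.02 to 0.44 in the Prom1+ library, from -0.01 to 0.17 in the Prom1- library and from -0.01 to 0.33 in the library labelled CD45+. Over all genes, higher calls in the Prom1- library were 40.9% of calls, against 52.5% with totals, and in the Prom1+ over the Prom1- library 54.8%, against 66.9% with totals and 46.8% with DESeq2, where most calls were lower. The enzymes as a percentage of plasma protein genes were 5.14, 17.6, 45.2 and 22.7 without Alb and 3.62, 12.5, 27.5 and 17.4 without the highest member (Prom1+, Prom1-, labelled CD45+, presorted). The Cyp8b1, Gys2 and Baat ratios rest on the fewest counts.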

Other observations

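Transcriptional regulators of hepatocyte genes were counted beside the enzymes. Of 23 regulators, 6 were called higher and 5 lower in the Prom1+ than in the presorted library, near the shares over all genes of 27.6% and 15.6%, with a median of log2 -0.02, against -4.57 for the enzymes. Onecut1 (HNF6), a factor of hepatocyte and bile duct development, stood at 84.8 CPM in the Prom1+ library, 12.3 in the Prom1- library, 1.53 in the library labelled CD45+ and 10.9 in the presorted library, 7.81-fold higher (7.09 to 8.62) in the Prom1+ than in the presorted library. Nr1i3, the constitutive androstane receptor that drives Cyp2 genes, stood at 1.52, 7.42, 2.54 and 27.8 CPM and was 18.3-fold lower (13.9 to 24.7). Cebpb, an acute phase factor, stood at 162, 199, 53.1 and 164 CPM. In the library labelled CD45+ 18 of the 23 were called lower than in the presorted library and 0 higher, beside 12.1% and 23.8% of all genes, with a median of -3.28. Between the Prom1+ and Prom1- libraries 15 were called higher and 1 lower, beside 15.5% and 12.7% of all genes, with a median of 1.73, while the enzymes' median was -1.60. The cholangiocyte markers, a list that overlaps this one, summed to 24946, 9414, 415 and 4011 CPM, and their part was not tested.

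Some enzymes on the wider lists had another order of levels than most of the 33. Gatm, which makes the creatine precursor guanidinoacetate, stood at 5.81 CPM in the Prom1+ library, 188 in the Prom1- library, 830 in the library labelled CD45+ and 567 in the presorted library. Cyp4b1 stood at 8.81, 358, 1499 and 1156 CPM, and Aass, the first enzyme of lysine breakdown, at 67.6, 87.9, 439 and 354 CPM. In the library labelled CD45+ these 3 were 1.46-fold (1.44 to 1.49), 1.30-fold (1.28 to 1.32) and 1.24-fold (1.21 to 1.27) above the presorted library, without a call. In the Prom1+ library each was called lower than in the presorted library. The endothelial markers summed to 112, 6280, 13363 and 10215 CPM, and their part was not tested. Ch25h, the cholesterol 25-hydroxylase, stood at 0.0584, 31.9, 9.27 and 4.25 CPM and was called higher in the Prom1- than in the presorted library, by 7.51-fold (6.32 to 8.94). Cyp4f14, of the fatty acid oxidising Cyp4 family, and Chdh, choline dehydrogenase, had their highest level in the Prom1+ library, with 69.5, 11.7, 1.05 and 22.8 CPM for Cyp4f14 and 135, 10.2, 5.12 and 82.5 CPM for Chdh. Against the presorted library Cyp4f14 was called higher there, by 3.06-fold (2.84 to 3.29), and Chdh, at 1.64-fold (1.57 to 1.71), was not called.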
